A study of Mus musculus with 2 samples.

Results

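The pore-forming and auxiliary subunit genes of the voltage-gated calcium and sodium channels were described in DNase-seq data from mouse hippocampus. The members were taken by symbol, as the GENCODE M21 protein-coding genes whose symbols start with Cacn, without Cacng5, or that are Scn with a number and a or b. This gave 39 genes, 25 of calcium channels and 14 of sodium channels, of 21938 protein-coding genes outside the mitochondrial genome. The rule uses symbols and no measured value, but it was set with earlier results of these data known. DNase I cuts nuclear DNA where chromatin is accessible. Peaks are called where cuts pile up, and footprints are short protected stretches that can mark a bound protein.

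Voltage-gated calcium channels let calcium into a cell when its membrane depolarises, which starts transmitter release at nerve endings and changes gene activity in cell bodies. Voltage-gated sodium channels carry the rising phase of the action potential. Each channel has 1 large pore-forming subunit, called alpha1 in calcium channels and alpha in sodium channels, and auxiliary subunits that set its placement, amount and gating. Different tissues use different pore genes, with some best known from brain, some from skeletal muscle or heart, and some from sensory neurons or retina.

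The series held 1 group, with no treated or control arm. The tissue, labelled as a hippocampal layer, came from female B6CASTF1/J mice, which are an F1 cross, aged 8-10 months. There were 2 libraries, numbered by the labels as biological replicates 1 and 2, and each was a pool of 2 biosamples. The labels do not say that the pools came from different animals, so the spread between the libraries may be technical. The larger of the 2 deposited peak lists held 98902 peaks in replicate 1 and 130199 in replicate 2, and 81.6% of the first and 62.0% of the second overlapped a peak of the other library. Markers of the labelled tissue had promoter peaks in both libraries at 5 of 5 neuronal and 4 of 4 hippocampal field genes. Those of other cells did at 3 of 4 astrocyte, 3 of 4 oligodendrocyte, 1 of 4 microglial and 1 of 4 endothelial genes. A promoter peak in both libraries was found at 59.2% of all protein-coding genes. None of 5 skeletal muscle and none of 5 heart markers had one, although the heart troponin gene Tnni3 had a peak of 0.573 in replicate 2. The tissue was mixed, so a site open in few cells and a site weakly open in many cells cannot be told apart.

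The sequences that carry the main sites are shown first, so that the values can be read beside them. Each runs 5′ to 3′ on the strand of its gene, from the RefSeq sequence of GRCm38.p6, the mm10 build. It is the stretch, of at most 300 bases, that peaks of both libraries share, without annotated untranslated regions. Capitals mark bases inside footprints of both libraries. The first 4 lie at or shortly before transcript starts of brain genes. Cacna1b has 3 copies of the word GGGCGG, a core of the sites of SP and KLF factors. The stretch of Cacng8 holds GTTGCTATG, a word of RFX factors, outside the capitals and 0.497 kb before the 5′ end of the gene.
Cacna1b, chr2:24763153-24763380, minus strand: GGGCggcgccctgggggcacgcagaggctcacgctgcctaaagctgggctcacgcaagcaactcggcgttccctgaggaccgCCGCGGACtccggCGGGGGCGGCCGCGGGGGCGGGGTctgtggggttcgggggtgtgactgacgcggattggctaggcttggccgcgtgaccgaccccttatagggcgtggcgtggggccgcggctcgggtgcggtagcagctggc
Cacng8, chr7:3390104-3390238, plus strand: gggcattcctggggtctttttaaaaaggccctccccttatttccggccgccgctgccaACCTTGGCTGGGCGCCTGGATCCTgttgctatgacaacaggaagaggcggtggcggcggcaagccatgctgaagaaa
Scn2a at its 5′ end, chr2:65620641-65620770, plus strand: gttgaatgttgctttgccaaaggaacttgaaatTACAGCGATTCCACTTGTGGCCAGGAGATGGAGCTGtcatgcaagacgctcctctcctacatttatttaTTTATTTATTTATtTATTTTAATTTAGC
Scn2a at its inner start, chr2:65668481-65668580, plus strand: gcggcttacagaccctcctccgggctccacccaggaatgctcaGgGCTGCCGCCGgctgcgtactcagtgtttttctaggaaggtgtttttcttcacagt

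A second set comes from inside genes. The strongest site of Cacna1a at an annotated start lay near the gene's 3′ end. The 225 bases printed from it are coding exon, and 35 bases annotated as untranslated were left out. The strongest other site of Cacna1a, and that of Scn8a, lay in introns. The intron site of Cacna1a held the RFX word GTTGCCATG under a footprint of both libraries. The last 2 belong to genes not best known from brain neurons. The intron site of Cacng6 was the closest shared peak to a promoter that had none, and Scn7a had the lowest promoter signal of the members with a peak in both libraries.
Cacna1a in its last part, chr8:84639481-84639705, plus strand: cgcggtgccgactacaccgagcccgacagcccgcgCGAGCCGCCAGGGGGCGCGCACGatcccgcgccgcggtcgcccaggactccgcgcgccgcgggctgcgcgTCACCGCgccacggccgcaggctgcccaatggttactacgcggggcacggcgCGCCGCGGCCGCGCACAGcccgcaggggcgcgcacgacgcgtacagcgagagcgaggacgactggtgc
Cacna1a intron, chr8:84494801-84495000, plus strand: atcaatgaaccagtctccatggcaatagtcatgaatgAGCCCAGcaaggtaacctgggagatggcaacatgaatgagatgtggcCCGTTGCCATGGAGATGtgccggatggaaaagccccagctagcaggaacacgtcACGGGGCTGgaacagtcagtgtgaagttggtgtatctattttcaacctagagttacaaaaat
Scn8a intron, chr15:100923501-100923800, plus strand: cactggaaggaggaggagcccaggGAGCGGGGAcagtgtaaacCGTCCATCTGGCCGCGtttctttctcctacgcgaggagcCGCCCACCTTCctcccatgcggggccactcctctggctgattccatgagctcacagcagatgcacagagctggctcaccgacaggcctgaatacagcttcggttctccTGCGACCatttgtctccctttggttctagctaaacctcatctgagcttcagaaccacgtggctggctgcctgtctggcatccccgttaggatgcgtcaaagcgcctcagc
Cacng6 intron, chr7:3425261-3425480, plus strand: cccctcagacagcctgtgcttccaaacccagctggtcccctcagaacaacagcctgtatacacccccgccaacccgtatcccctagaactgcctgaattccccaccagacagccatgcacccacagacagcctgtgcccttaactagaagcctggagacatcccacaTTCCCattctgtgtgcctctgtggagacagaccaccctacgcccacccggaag
Scn7a, chr2:66784930-66785066, minus strand: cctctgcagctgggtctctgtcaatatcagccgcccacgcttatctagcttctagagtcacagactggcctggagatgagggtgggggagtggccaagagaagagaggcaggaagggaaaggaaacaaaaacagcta

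Most promoters of the brain channel genes were open, and none of the muscle and heart genes was. The promoter windows of a gene reached 500 bp to each side of every annotated start of its transcripts. A gene was called open when both libraries had a peak touching a window. Of the 39 members, 27 were open (69.2%), against 12982 of the 21938 protein-coding genes (59.2%). The 19 members best known from brain held 17 open promoters, and the 9 known from brain and muscle held 7. The 5 muscle and heart genes held 0, and the 6 sensory, retinal and peripheral genes held 3. The lists were set by the tissue each gene is best known from, with earlier results of these data known. With 1 group of tissue no test of these counts was made. The split between brain and muscle genes was present in each library alone, at 18 of 19 brain genes and 0 of 5 muscle and heart genes in each.

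**Figure D1:**
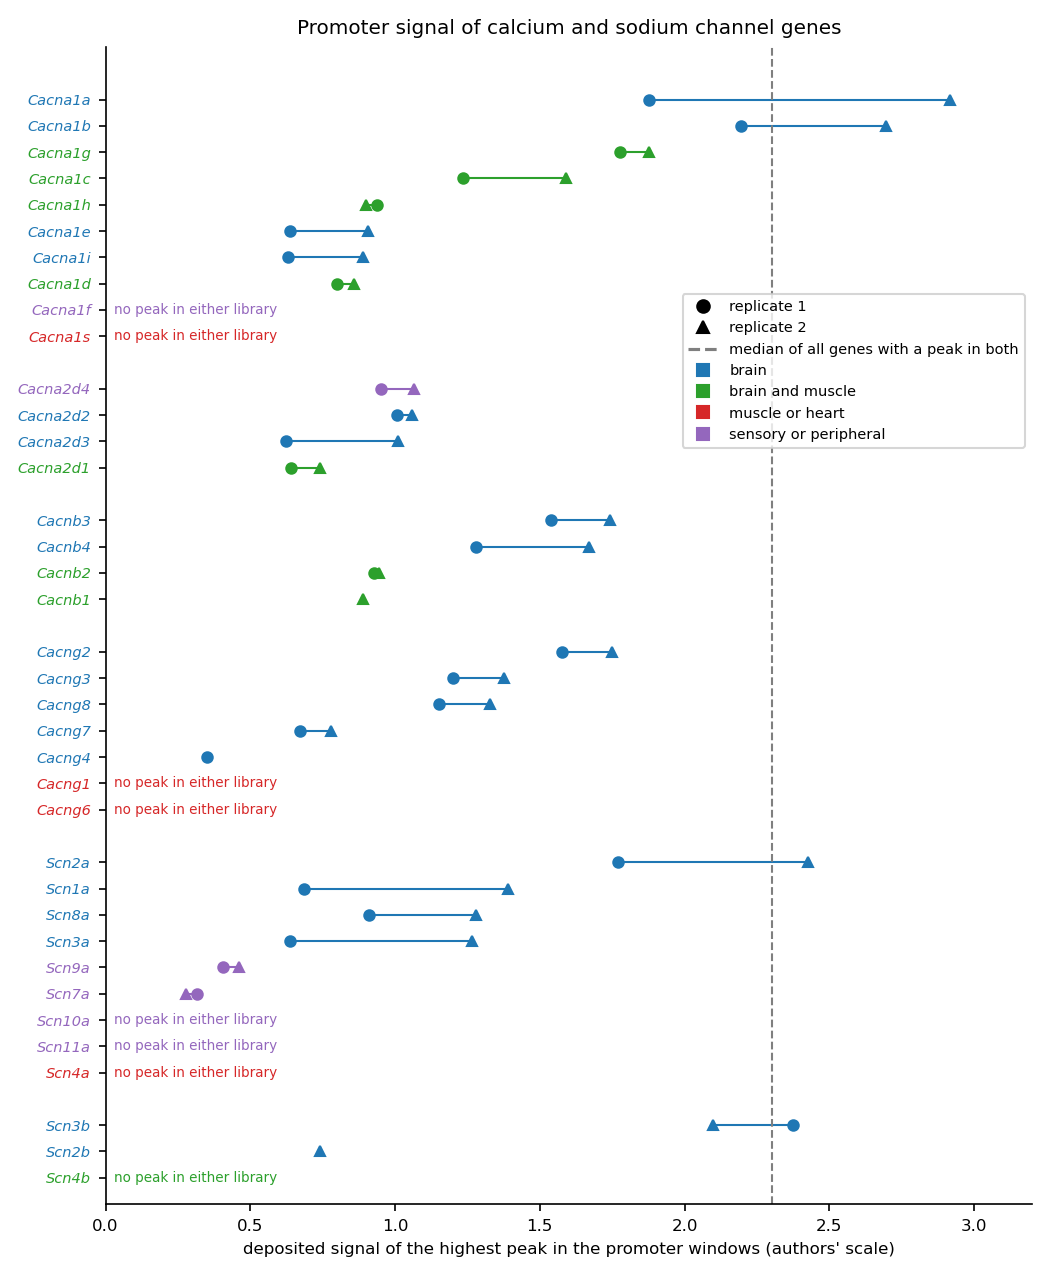
Promoter signal of 37 channel genes, grouped from top to bottom as calcium channel alpha1, alpha2delta, beta and gamma and sodium channel alpha and beta genes. The x axis is the deposited signal of the highest peak in any promoter window on the authors' scale, circles are replicate 1 and triangles replicate 2, colours are the isoform lists and the dashed line is the median of all open protein-coding genes (2.30). Scn7a and Scn9a lie lowest among the genes with both symbols, and 8 genes have no symbol because no peak was called.

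The deposited signal of a peak is its height on a scale whose constant is not stated in the labels or files. Its values were whole steps of 0.00606 in replicate 1 and 0.00795 in replicate 2. The median over the 27 open members, each taken as the mean of both libraries at its highest promoter peak, was 1.03, against 2.30 over all open genes. It was 1.24 for the brain list, 0.919 for the brain and muscle list and 0.434 for the 3 open sensory and peripheral genes. Replicate 2 was higher at 23 of the 27 open members (85.2%) and at 69.5% of all open genes. The median log2 ratio of replicate 2 to replicate 1 was 0.20 for the members and 0.14 for all open genes.

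Among the calcium channel alpha1 genes, 8 of 10 were open. For this class and each class below, the share over all protein-coding genes was 59.2%. Cacna1b, the pore gene of the N-type channel that triggers transmitter release, had 2.19 in replicate 1 and 2.70 in replicate 2, the highest mean of all members (2.44 ± 0.355, SD, n = 2). Its peak, shown above, lay directly before the 5′ end of the gene record. Cacna1g, a T-type pore gene of burst firing, had 1.78 in replicate 1 and 1.88 in replicate 2 at its 5′ end. These libraries lay closer together than those of Cacna1b.

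Cacna1h and Cacna1i, the other T-type genes, were open at their 5′ ends with lower values. Cacna1h had 0.939 in replicate 1 and 0.899 in replicate 2, and Cacna1i had 0.630 and 0.891. Cacna1c, the main L-type pore gene of brain and heart, had 1.24 in replicate 1 and 1.59 in replicate 2 at a start 87.8 kb inside its record. Cacna1d, the L-type gene of pacemaking cells, had 0.800 and 0.859 at a start 138 kb inside. Neither was open at the 5′ end of its record.

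Cacna1a and Cacna1e were open by this rule only at non-coding transcripts. Cacna1a, the P/Q-type pore gene of fast release, had 1.88 in replicate 1 and 2.92 in replicate 2, but the peak lay 251 kb from the 5′ end, beside the start of a processed transcript. All 225 bases printed above from that peak are annotated as coding exon. At the starts of its protein-coding transcripts a peak of 0.429 was called in replicate 2 and none in replicate 1. Cacna1e, the R-type pore gene, had 0.636 in replicate 1 and 0.906 in replicate 2 at the start of a retained-intron transcript 67.6 kb inside. At its coding starts it had 0.716 in replicate 2 and no peak in replicate 1.

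Cacna1s, the voltage sensor of skeletal muscle, and Cacna1f, the retinal L-type gene, had no promoter peak in either library. No base of either promoter reached a deposited false discovery rate below 0.05, which held for 35.3% of all protein-coding genes. The closest shared peak to Cacna1s lay 970 bp before its 5′ end, with 1.30 in replicate 1 and 1.64 in replicate 2. That of Cacna1f lay 1543 bp before its start and touched the promoter of its neighbour Ccdc22, with 1.52 and 1.95.

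The 4 alpha2delta genes, whose extracellular subunits raise channel number at the membrane, were all open, at modest height. Cacna2d1 had 0.642 in replicate 1 and 0.739 in replicate 2 at its 5′ end. Cacna2d3 had 0.624 and 1.01 at a start 752 kb inside its record and a second open window at its 5′ end. In Cacna2d2 the higher peak, with 1.01 in replicate 1 and 1.06 in replicate 2, lay at a retained-intron transcript 127 kb inside, and its coding start had 0.376 and 0.461.

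Cacna2d4, known from retina, had 0.951 in replicate 1 and 1.07 in replicate 2. The peak lay 94.2 kb inside its record and touched the promoter of Lrtm2, a protein-coding gene nested there. Only a retained-intron and a processed transcript of Cacna2d4 started there, and its coding starts had no peak in either library. The call of Cacna2d4 as open therefore rested on a window that it shared with another gene. With 2000 bp windows its mean was 2.80, against 1.01 with those of 500 bp.

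Of the 4 beta genes, whose cytoplasmic subunits carry the pore to the membrane, 3 were open in both libraries. Cacnb3 had 1.54 in replicate 1 and 1.74 in replicate 2 at a start 3.93 kb inside its record. Cacnb4, the beta gene lost in the lethargic mouse, had 1.28 and 1.67 at a start 118 kb inside. The libraries lay closer at its 5′ end, which had 0.454 in replicate 1 and 0.461 in replicate 2. Cacnb2, the main beta gene of heart, had 4 open windows. The peak 136 kb inside had 0.927 in replicate 1 and 0.914 in replicate 2. Only a processed transcript of Cacnb2 started there, and the peak also touched the promoter of an antisense gene. The peak 1.22 kb inside, at a coding start, had 0.794 and 0.946 and also touched the promoter of a pseudogene. Cacnb1, the beta gene of skeletal muscle that brain also uses, had a promoter peak of 0.891 in replicate 2 and none in replicate 1.

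In the gamma family 4 of 7 genes were open, all of them on the brain list, while Cacng4 of that list was not. Cacng2, Cacng3, Cacng4 and Cacng8 encode TARPs, proteins that carry AMPA-type glutamate receptors to synapses, and Cacng7 encodes a related protein. Cacng2, the stargazin gene, had 1.58 in replicate 1 and 1.75 in replicate 2. Cacng3 had 1.20 and 1.38, and Cacng8, abundant in hippocampus, had 1.15 and 1.33. Cacng7 had 0.673 in replicate 1 and 0.779 in replicate 2 within 500 bp of its start. A peak 1.25 kb before its 5′ end had 2.70 in replicate 1 and 2.43 in replicate 2, so that with 2000 bp windows Cacng7 had a mean of 2.56 and stood above Cacng2, at 1.66.

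The peaks of Cacng2 and Cacng8 also touched starts of non-coding RNA genes, an antisense gene at Cacng2 and a lincRNA at Cacng8. Cacng4 had a peak of 0.351 in replicate 1 and none in replicate 2. Cacng1, the gamma subunit of the skeletal muscle channel, had no promoter peak, no base below the false discovery rate and no peak of either library within 20 kb of its record. Cacng6, also known from muscle, had no promoter peak, although 43 bases in replicate 1 and 26 in replicate 2 passed the false discovery rate. Its closest shared peak lay 539 bp inside the nearest start, with 1.99 in replicate 1 and 2.06 in replicate 2.

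The sodium channel alpha genes with an open promoter included Scn1a, Scn2a, Scn3a, Scn7a, Scn8a and Scn9a. Scn2a, the main alpha gene of unmyelinated axons and of young axon initial segments, had 1.77 in replicate 1 and 2.43 in replicate 2. This peak lay at a start 47.9 kb inside the record. The 5′ end was open as well, with 0.854 in replicate 1 and 1.43 in replicate 2. At both starts replicate 2 was the higher library.

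Scn1a, the alpha gene of fast-spiking interneurons, had 0.685 in replicate 1 and 1.39 in replicate 2, at a start 30.8 kb inside. Its 5′ end was a second open window. Scn3a, highest in the developing brain, had 0.636 in replicate 1 and 1.26 in replicate 2 at its 5′ end. These are the widest gaps between the libraries among the open members, at log2 ratios of 1.02 and 0.99 against the median of 0.14 over all open genes. Scn8a, the alpha gene of mature nodes and initial segments, had 0.909 in replicate 1 and 1.28 in replicate 2.

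The sodium channel genes of other tissues were weaker or closed. Scn9a, known from pain-sensing neurons, had 0.406 in replicate 1 and 0.461 in replicate 2. Scn7a, which encodes a channel that senses sodium rather than voltage, had 0.315 and 0.278, the lowest of the 27, and its promoter held 3 footprints in replicate 1 and 0 in replicate 2. Scn4a of skeletal muscle and Scn10a and Scn11a of sensory ganglia had no promoter peak and no base below the false discovery rate in either library.

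The sodium channel beta genes encode cell adhesion proteins that also change gating. Scn3b was open, with 2.38 in replicate 1 and 2.10 in replicate 2, the highest mean of the members after Cacna1b and Cacna1a. Scn2b had a peak of 0.739 in replicate 2 and none in replicate 1. Scn4b, linked to resurgent current in firing neurons, had no promoter peak and no base below the false discovery rate.

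Footprints were not independent of the peaks, since 89.4% of them in replicate 1 and 91.5% in replicate 2 touched a peak of their own library. A footprint of each library lay in the promoter windows of 26 members (66.7%), against 56.9% of all protein-coding genes. These comprised all 17 open brain genes, all 7 open brain and muscle genes and 2 of the sensory and peripheral genes. The muscle and heart genes had 0. In the smaller of the deposited peak lists 19 members were open, 48.7% of 39, against 53.3% of all genes. Of these, 12 belonged to the brain list.

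**Figure D2:**
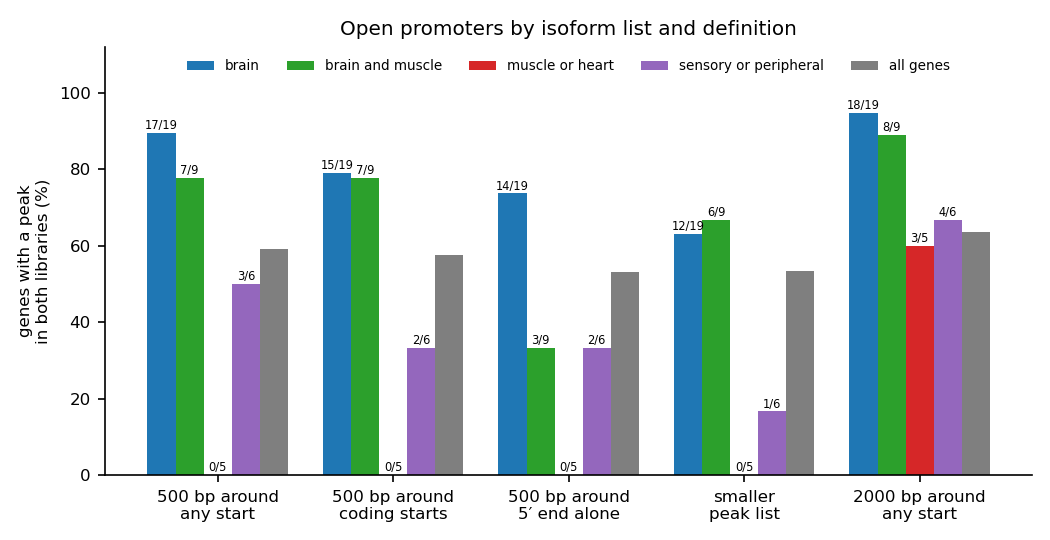
Share of genes with a promoter peak in both libraries, in percent, for the 4 isoform lists and for all protein-coding genes, under 5 definitions of an open promoter. Numbers over the bars are open genes of genes in the list. The muscle or heart list has no open gene in 4 of the 5 definitions and 3 of 5 when the window is widened to 2000 bp.

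The lists differed in how much sequence the promoter windows covered. The median number of distinct starts was 7 for the brain genes, 2 for the muscle and heart genes and 3 for all genes. With 1 window at the 5′ end alone, 14 of 19 brain genes, 3 of 9 brain and muscle genes and 0 of 5 muscle and heart genes were open, against 53.3% of all genes. The members as a whole then stood at 19 of 39 (48.7%). With the starts of protein-coding transcripts alone, 24 members were open (61.5%), against 57.6% of all genes, and these held 15 of the brain list.

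Inner starts were common among the members. At 12 of the 27 open members (44.4%) the highest replicate 1 peak lay at a start 1 kb or more from the 5′ end of the record, against 13.0% of all open genes. The gene records were long, with a median of 111 kb for the members and 17.4 kb for all genes, and the part of length in this count was not tested. The 12 genes were Cacna1a, Cacna1c, Cacna1d, Cacna1e, Cacna2d2, Cacna2d3, Cacna2d4, Cacnb2, Cacnb3, Cacnb4, Scn1a and Scn2a. At the highest replicate 1 peaks of Cacna1a, Cacna1e, Cacna2d2, Cacna2d4 and Cacnb2, only retained-intron or processed transcripts of the gene started. These peaks need not be promoters of the channel genes, and no such share is given for all open genes.

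Base composition also varied. The median ratio of observed to expected CpG around the 5′ end was 0.462 in the brain list, 0.342 in the muscle and heart list, 0.202 in the sensory and peripheral list and 0.552 in all genes. Among the 11959 genes within the range of the muscle and heart list, 0.263 to 0.836, 73.9% were open. The part of CpG content in the counts was not tested beyond this.

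Widening the window to 2000 bp added 6 members, among them Cacna1f, Cacna1s, Cacnb1, Cacng6 and Scn2b. This gave 33 of 39 (84.6%), against 63.5% of all genes, and 3 of the 5 muscle and heart genes. The site of Scn2b lay 1822 bp before the start, with 0.939 in replicate 1 and 1.22 in replicate 2. Cacng1, Cacng4, Scn4a, Scn4b, Scn10a and Scn11a were not open in the wider window either. Their closest shared peaks lay 7.93 kb away at Scn4b, 13.2 kb at Scn4a, 15.4 kb at Cacng4, 21.9 kb at Scn11a, 31.6 kb at Scn10a and 43.1 kb at Cacng1.

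Outside promoters, the calcium channel genes with long records held many shared sites. A shared site is a replicate 1 peak that overlaps a replicate 2 peak, counted in the gene record and 20 kb on either side. At least 1 such site outside all protein-coding promoters was found at 37 of 39 members, against 71.5% of all genes. The exceptions were Cacng1 and Scn11a. The searched regions had a median of 151 kb for the members and 57.4 kb for all genes, and the part of length was not tested. The members held 265 distinct distal sites. Introns held 204 of them (77.0%), the upstream flanks 24, the downstream flanks 23 and exons 14.

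With promoter sites included, Cacna1c had 35 shared peaks, Cacna2d3 32, Cacna1e 29, Cacna1d 20 and Cacna1a 19. The median was 6 for the members and 3 for all genes. Per 100 kb of record and flanks the medians were 4.62 for the members and 4.65 for all genes. The members were thus not higher per length with promoter sites included. For sites outside promoters the medians per 100 kb were 3.51 for the members and 2.22 for all genes. With promoter sites included, the brain list had 4.62 and the muscle and heart list 2.68 per 100 kb. The ranges were 1.96 to 11.5 and 0 to 8.41, so that single genes of the lists overlapped widely. The order of these lists turned with the smaller peak list, which gave 2.01 for the brain list and 2.68 for the muscle and heart list.

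**Figure D3:**
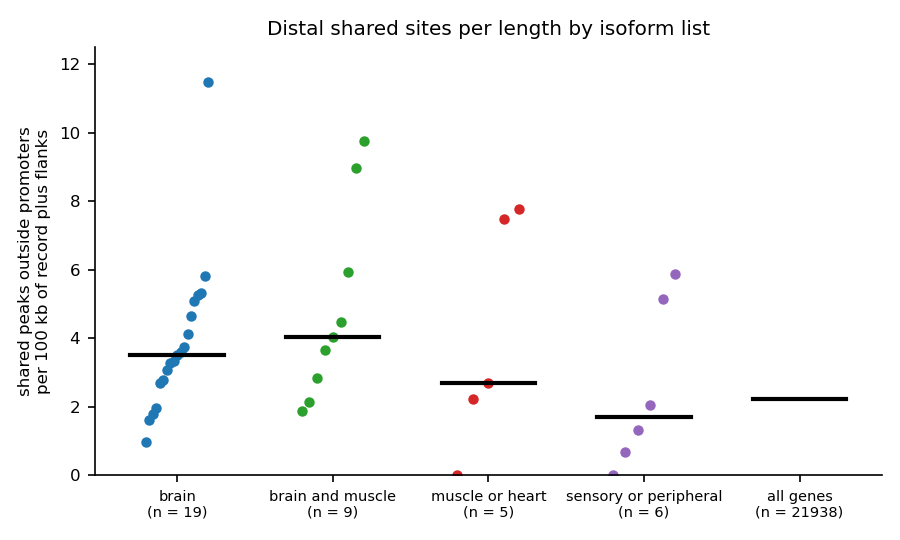
Shared peaks outside protein-coding promoters per 100 kb of gene record plus 20 kb flanks, with 1 point for each gene in the 4 isoform lists and black bars at the medians. The bar for all protein-coding genes stands at 2.22, that of the brain list at 3.51 and that of the muscle or heart list at 2.68, and the points of the lists overlap.

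**Figure D4:**
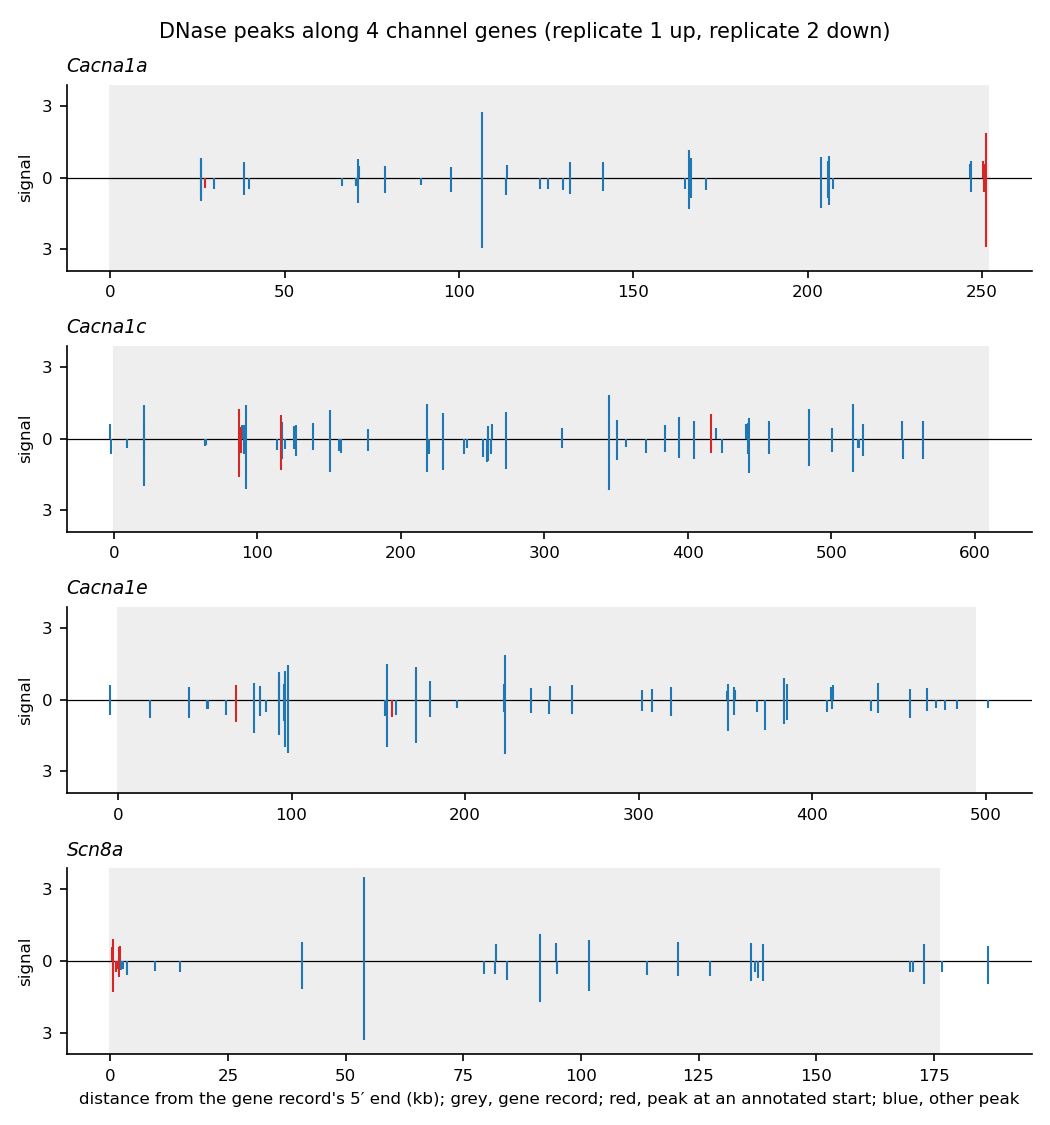
Peaks of replicate 1 (upward) and replicate 2 (downward) along Cacna1a, Cacna1c, Cacna1e and Scn8a, by distance from the 5′ end of the gene record in kb, with the deposited signal as bar height. Red bars touch an annotated start of the gene and blue bars do not, and the grey band is the gene record. The tallest bars of Cacna1a stand 106 kb and 251 kb inside, and that of Scn8a 53.8 kb inside.

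Several of these distal sites were stronger than the promoter of their gene. The intron site of Scn8a, 53.8 kb inside, had 3.51 in replicate 1 and 3.29 in replicate 2, with 6 and 7 footprints, whereas its promoter averaged 1.09. The intron site of Cacna1a, 106 kb inside, had 2.73 in replicate 1 and 2.95 in replicate 2. In Cacna1e a site 223 kb inside had 1.86 and 2.27, against a mean of 0.771 at its highest start. The highest distal site of all lay 34.7 kb from the 5′ end of Cacnb1, past its 3′ end, with 3.42 in replicate 1 and 4.31 in replicate 2. It lay in no other protein-coding gene.

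Closed promoters did not mean closed neighbourhoods. Cacna1s had 8 distal shared sites, among them 1 past its 3′ end with 2.04 in replicate 1 and 1.97 in replicate 2, and 1 in an exon 66.3 kb inside with 2.00 and 1.46. Scn4a had 2, and the higher one, with 1.58 and 1.50, lay inside the neighbouring gene Prr29. Scn2b and Scn4b lie side by side and share 5 of their sites, and Cacng6 and Cacng8 share 2, so these are not separate observations. Cacng6 is on the muscle and heart list and Cacng8 on the brain list. The intron pair of Scn2b, 4.19 kb and 4.58 kb inside, had 1.35 and 1.41 in replicate 1 and 1.46 and 1.50 in replicate 2.

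**Figure D5:**
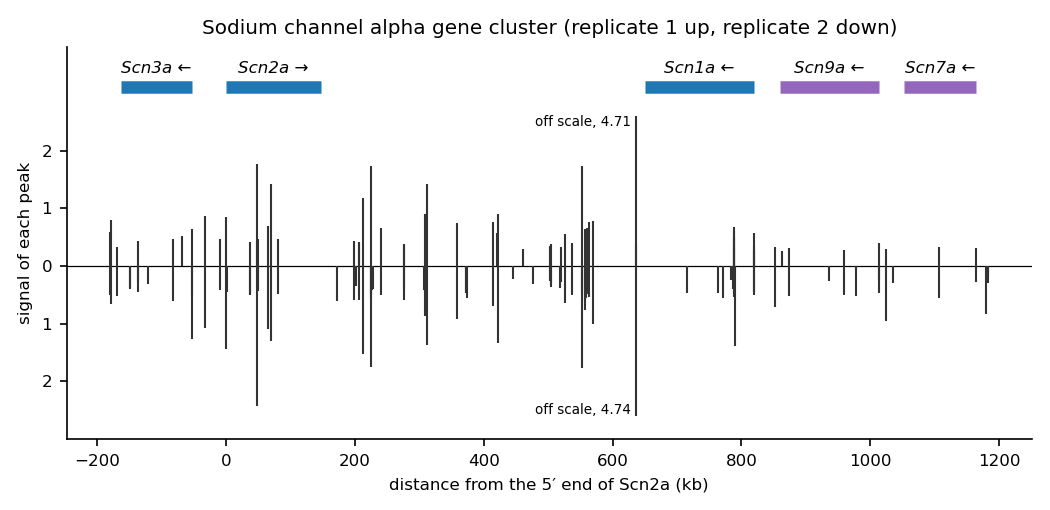
Peaks of replicate 1 (upward) and replicate 2 (downward) across the sodium channel alpha genes Scn3a, Scn2a, Scn1a, Scn9a and Scn7a, by distance from the 5′ end of Scn2a in kb, with the deposited signal as bar height. Coloured bars are the gene records, blue for the brain list and purple for the sensory or peripheral list, and arrows give the strand. The tallest bars within a channel gene stand 47.8 kb inside Scn2a, and the off-scale bar between the genes is at the start of Ttc21b.

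The 5 sodium channel alpha genes in 1 stretch of chromosome 2 differed along it. Within its record Scn3a held 4 peaks in replicate 1 and 8 in replicate 2. Scn2a held 8 peaks in replicate 1 and 10 in replicate 2, and Scn1a 7 and 10. Scn9a held 4 in replicate 1 and 5 in replicate 2, and Scn7a 2 and 1. The brain genes Scn3a and Scn2a lie head to head with their starts open, while the sensory and peripheral pair at the other end had the lowest open promoters of all members. The strongest peak between the channel genes lay at the start of Ttc21b, with 4.71 in replicate 1 and 4.74 in replicate 2. Others there lay at no protein-coding start, among them one 553 kb from the 5′ end of Scn2a with 1.73 in replicate 1 and 1.77 in replicate 2.

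A total of 10 short words were searched on both strands in 300 bp around the highest replicate 1 promoter peak of the 27 open members and of all 12982 open genes. GGGCGG was found in 15 members (55.6%) and in 65.9% of all. The ETS word CCGGAAG was found in 0 members and 19.0% of all, and the CREB word TGACGTCA in 0 and 4.11%. TGANTCA, the AP-1 word, was in 3 members (11.1%), against 4.18% of all. GCGTGGGCG, the EGR word, was in 2 members (Cacna1h and Scn7a), against 1.46%. The E-box CAGATG was in 4 (14.8%), against 11.3%, and the TATA word TATAAA in 1 (Scn2a), against 4.04%. GTTGCNATG, the RFX word, was in 1 (Cacng8), against 1.83%, and the MEF2 word in 0, against 0.300%. A match is a description of the letters in the window only.

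The CTCF word was found in the promoter windows of 3 members (11.1%), against 1.43% of all open genes, and all 3 are sodium channel alpha genes of the brain list, Scn1a, Scn2a and Scn3a. The CTCF, RFX and MEF2 words were added to the search after sequences of these sites had been seen, so their counts are not independent of that choice. The matches are given here with the strand on which they read.
Scn1a, chr2:66410179-66410190, minus strand: CCACTAGATGGC
Scn2a, chr2:65668586-65668597, minus strand: CCACTAGAGGGC
Scn3a, chr2:65567582-65567593, minus strand: CCAGTAGATGGC
All 12 bases lay in a footprint of both libraries at Scn2a. At Scn3a 12 bases were covered in replicate 1 and 7 in replicate 2, and at Scn1a 0 and 12.

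At the distal sites the words were counted in 265 members' windows and in all 80698 shared peaks. The shared peaks include those at promoters, which the members' windows leave out. Promoter windows of all open genes held GGGCGG at 65.9%, the ETS word at 19.0% and the E-box at 11.3%. The part of this difference in the shares below was not tested. The CTCF word was in 18 of 265 members' windows (6.79%), against 5.37% of the 80698 shared peaks. Of the 18 words, 15 lay wholly in a footprint of both libraries (83.3%), against 57.1% of the words in all shared peaks. The RFX word was in 15 distal windows (5.66%), against 2.36%, and 6 of its 17 occurrences lay wholly in footprints of both libraries (35.3%), against 21.0% in all shared peaks. It occurred in Cacna1a, Cacna1c, Cacna1e, Cacna1g, Cacna1h, Cacna1s, Cacna2d3, Cacnb2 and Scn3a. The E-box was in 110 windows (41.5%), against 32.9%, the AP-1 word in 46 (17.4%), against 12.9%, and the MEF2 word in 7 (2.64%), against 0.843%. Other words were less frequent in the members' windows than in all shared peaks. GGGCGG was in 31 (11.7%), against 21.7%, the TATA word in 21 (7.92%), against 10.5%, and the ETS word in 4 (1.51%), against 4.64%. The CREB word was in 1 (0.377%), against 1.08%, and the EGR word in 1, against 0.460%.

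RE1 is the element bound by the repressor REST, known from Scn2a, where it helps to keep the gene silent outside neurons. It was searched as TTCAGCACC and GGACAGCGC with 2 bases between them and up to 3 mismatches in the 18 positions. The records and flanks of the members held 22 such words, of which 2 lay in peaks of both libraries (9.09%), against 4.66% of 2144 words on all chromosomes. With at most 1 mismatch there were 4, and 0 lay in such peaks, against 10.5% of 152. Those 4 are shown with matching bases in capitals, and the Scn2a word lies 0.797 kb before the 5′ end.
Scn2a, chr2:65619964-65619983, plus strand: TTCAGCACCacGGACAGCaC
Cacna1h, chr17:25400635-25400654, minus strand: TTCAGCACCacGGACAGCGa
Scn10a, chr9:119664301-119664320, plus strand: TTCAGCACCagGGACAGaGC
Scn10a, chr9:119706899-119706918, minus strand: TTCAGCACCacGGACAGaGC
The 2 words in peaks of both libraries had more mismatches. That of Cacna1b lay 1.06 kb inside the gene, in a peak of 0.891 in replicate 1 and 1.28 in replicate 2, and that of Cacna1f lay past its 3′ end in a peak of 1.42 and 1.88.

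The genes of proteins that anchor, modify or work beside the channels were read as 4 lists, and the highest promoters and the closed ones of each are named. Sodium channel partners were open at 8 of 9, against 59.2% of all genes. Sptbn4, the spectrin of axon initial segments and nodes, had 8.73 in replicate 1 and 6.81 in replicate 2. Nedd4l, a ubiquitin ligase that takes channels off the membrane, had 2.50 and 3.34. Both lay above the highest channel gene, Cacna1b, by their means over the libraries. Fgf11, of the family of cytoplasmic sodium channel modulators, had no promoter peak, while Fgf12, Fgf13 and Fgf14 of that family were open.

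Calcium channel partners were open at 6 of 13, against 59.2% of all genes. Rimbp2, which links calcium channels to the release site of vesicles, had 1.22 in replicate 1 and 1.42 in replicate 2. Rem2, a small GTPase that inhibits calcium channels, had 1.23 and 1.07. Stac2, a muscle and neuron adaptor gene, had a peak of 0.954 in replicate 2 alone. The muscle adaptor Stac3 and the heart channel inhibitor Rrad had no promoter peak, and neither had Cabp1, Cabp4, Stac and Rem1.

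Genes of calcium release from internal stores were open at 5 of 7, against 59.2% of all genes. The junctophilin genes, whose proteins hold the store close to the surface membrane, were split. Jph1 had 1.59 in replicate 1 and 2.08 in replicate 2, and Jph4 had 1.36 and 1.24, while Jph2 and Jph3 had no promoter peak. The 3 ryanodine receptor genes, Ryr1, Ryr2 and Ryr3, were open. Related channels were open at 7 of 10, against the same 59.2%. Tpcn1, a channel of endosomes and lysosomes, had 8.28 in replicate 1 and 7.23 in replicate 2. Catsper2 of the sperm channel had 3.55 and 4.05, and Catsper1, Catsper3 and Catsper4 of the same channel had no promoter peak. For the genes of these partner lists, Catsper2 among them, it was not examined whether a peak also touched the promoter of another gene.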

How the data were processed

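DNase-seq was measured in 2 hippocampus libraries. Per the labels and the deposited notes, the authors made 2 peak lists, footprints and false discovery rate intervals from each library's own mm10 alignments. No source used here gives the aligner or the callers. The deposited peak height is a signal whose constant is not stated, so depth is unknown and no interval was computed. The deposited false discovery rates (p-value type) list bases below 0.05, and every footprint the authors deposited carries a threshold of 0.01. Values were whole signal steps in 100% of peaks (within 0.05 of a step).

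Intervals were read against GENCODE M21 with Python 3.11.15, numpy 2.4.6, pandas 2.3.3 and pysam 0.24.0. Overlaps needed 1 bp and were tested on simulated intervals. Peaks within a library can overlap each other. No test was made, since there is 1 group, and SDs are over 2 libraries. The members, lists, words and named-gene rule (every member accounted for; in full each role's highest and lowest promoter signal, all muscle, heart, sensory and peripheral genes, all members without a peak in both libraries and the 5 with most shared peaks; of partners the 2 highest per list and those not open) were chosen with earlier results of these data known. The RFX, CTCF and MEF2 words were added after sequences were seen. No column was left without a sample. Members are counted in full, but 2 of the 39 are not reported here by name.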

Additional observations from a re-analysis of the deposited data

How the results depend on the processing

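No paired analysis was possible because the series has 1 group. The count of open members, 27, ranged from 19 to 33 over the alternatives tried, and it was 29 without replicate 1 and 28 without replicate 2. The starts of protein-coding transcripts alone, chosen after seeing the data, gave 24. The muscle and heart count was 0 except with 2000 bp windows, which gave 3. The count with footprints, 26, was 17 when only footprints inside peaks of the smaller list were counted and 17 with the 5′ end alone. The median signal, 1.03, was 1.29 with the smaller list, where fewer genes are counted. The median of shared peaks, 6, was 3 without flanks and 10 with 50 kb flanks. Density in the brain list, 4.62, was 2.01 with the smaller list, and that of the muscle and heart list, 2.68, was 4.45 with 50 kb flanks. With 1 library left out, all peaks of the other were counted, and the median of peaks was 7 to 11, the brain density 5.55 to 8.81 and the muscle and heart density 4.02 to 5.90. Dividing each library by its median over shared peaks gave a median signal of 1.01. Reads of the 2 parental strains were not told apart here, and a peak that was not called does not show that a site is closed.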
